A study of Mus musculus with 6 samples.

Results

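The genes described here act in mitosis and in the G2 phase before it, the part of the cell cycle in which duplicated chromosomes are condensed, attached to the spindle and separated. They were taken as the probe sets whose only gene symbol in the platform's probe table was 1 of 38 listed genes, averaged per gene and array. Of the 38, 37 were measured, among 20848 measured genes in all. Ccnb1 had 0 probe sets by this rule, so its expression was not measured and only its promoter was searched. The RNA came from EpH4 cells, a mouse mammary epithelial line that forms polarised monolayers. All 6 samples came from cells held confluent for 7 days, with tight junctions formed, and then kept in serum-free medium for 24 hours. The 3 Vehicle samples received vehicle and the 3 TGF-β3 samples received TGF-β3 at 1 ng/ml, with a treatment time of 24 hours in both groups. The RNA of 3 wells of an experiment was pooled for each array. The labels name 3 experiments, and the sample numbers 1, 2 and 3 of the titles were the same in both groups, so same-numbered arrays are called a pair. The labels do not say which arrays came from which experiment, so the pairing rests on these numbers and on how the arrays deviate together.

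Mitotic genes are expressed late in the cell cycle. Their transcripts accumulate as cells pass through G2, when MuvB, a protein complex that binds the cell cycle genes homology region (CHR), works with B-MYB and FOXM1, and NF-Y binds CCAAT boxes upstream. In resting cells the same complex, joined to p130 and E2F4 as DREAM, represses these promoters. TGF-β is known to arrest many epithelial cells in G1, and a confluent, serum-starved monolayer usually holds few dividing cells. Levels in such a bulk sample do not tell more cells in G2 and mitosis from more RNA per cell.

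Promoters of these genes carried the CHR letters close to the transcript start. The promoter windows of RefSeq (build GRCm38.p6, 250 bases before to 50 after a transcript start) held 35 windows for 33 of the 38 genes. No window was matched for Ccna2, Aurkb, Foxm1, Kif20a and Tpx2. The stretches below run from 110 bases before the start to 50 after it, read along the gene, and capitals mark matches on either strand. The letters searched were TTTGAA for CHR, its variant TTCGAA, and CCAAT for the box bound by NF-Y. For E2F sites TTGGCGC was searched, and so was a further form, TTCCCGC. They are shown for 3 members with the smallest p in the treatment comparison (Hmmr, Ndc80, Ncapg), for 4 regulators of mitotic entry and exit (Plk1, Ccnb2, Cdc20, Cdk1) and for Birc5, whose window has no CHR match. The stretches lie at chr11:40733388-40733547 (minus strand) for Hmmr, chr17:71526808-71526967 (minus strand) for Ndc80, chr5:45669815-45669974 (plus strand) for Ncapg and chr7:122159325-122159484 (plus strand) for Plk1. The others lie at chr9:70421505-70421664 (minus strand) for Ccnb2, chr4:118437294-118437453 (minus strand) for Cdc20, chr10:69352863-69353022 (minus strand) for Cdk1 and chr11:117849127-117849286 (plus strand) for Birc5.
Hmmr: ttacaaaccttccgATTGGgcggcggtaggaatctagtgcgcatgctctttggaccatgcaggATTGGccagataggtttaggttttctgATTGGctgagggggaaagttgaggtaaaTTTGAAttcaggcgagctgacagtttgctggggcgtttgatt
Ndc80: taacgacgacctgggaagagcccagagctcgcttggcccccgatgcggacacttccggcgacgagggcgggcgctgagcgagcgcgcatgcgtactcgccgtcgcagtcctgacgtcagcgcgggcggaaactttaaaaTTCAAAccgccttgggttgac
Ncapg: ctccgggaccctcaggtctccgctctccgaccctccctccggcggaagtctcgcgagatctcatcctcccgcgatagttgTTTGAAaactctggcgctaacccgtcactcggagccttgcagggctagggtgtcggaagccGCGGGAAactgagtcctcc
Plk1: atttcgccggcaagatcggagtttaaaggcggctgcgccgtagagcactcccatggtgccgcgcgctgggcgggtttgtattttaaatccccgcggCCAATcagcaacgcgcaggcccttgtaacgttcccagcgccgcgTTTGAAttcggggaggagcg
Ccnb2: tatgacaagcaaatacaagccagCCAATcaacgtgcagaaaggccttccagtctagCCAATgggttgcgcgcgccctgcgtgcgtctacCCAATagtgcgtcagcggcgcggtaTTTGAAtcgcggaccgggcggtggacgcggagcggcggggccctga
Cdc20: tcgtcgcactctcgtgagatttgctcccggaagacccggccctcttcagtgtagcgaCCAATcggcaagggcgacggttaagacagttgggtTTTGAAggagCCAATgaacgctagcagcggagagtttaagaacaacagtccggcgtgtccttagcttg
Cdk1: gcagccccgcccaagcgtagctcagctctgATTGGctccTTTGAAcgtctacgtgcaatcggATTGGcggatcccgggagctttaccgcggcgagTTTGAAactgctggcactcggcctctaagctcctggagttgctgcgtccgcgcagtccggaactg
Birc5: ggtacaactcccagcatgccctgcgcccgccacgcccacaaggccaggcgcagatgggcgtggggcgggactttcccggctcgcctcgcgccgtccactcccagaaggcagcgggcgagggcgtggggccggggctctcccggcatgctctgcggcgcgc

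In the printed stretch of Ccnb2, 3 CCAAT boxes preceded a CHR match that began 4 bases after the start. In that of Hmmr, 3 CCAAT boxes preceded a match that began 8 bases after the start, with further boxes at -172 and -129 in the full window. Over both strands and the full windows, TTTGAA was found in 27 of the 35 windows of mitotic genes (77.1%) and in 17.9% of all 32851 windows. Within 50 bases of the start it lay in 24 of the 35 windows and in 4.94% of all windows. CCAAT was found in 27 of the 35 windows, against 37.4% of all windows, and 24 windows (68.6%) held both TTTGAA and CCAAT, against 6.95% of all. The E2F sites TTGGCGC and TTCCCGC were found in 6 and 1 of the 35 windows, against 2.45% and 4.6% of all windows. TTCGAA was found in 3 windows, among them that of Bub1, against 1.56% of all. In the 35 windows, 4 pairs of matches to different motifs shared bases. Of the 33 genes, Birc5, Bub1, Ccnb1, Cenpe, Mad2l1, Melk, Nuf2 and Nusap1 had no TTTGAA in these windows.

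The same letters were searched in other genes of the cell cycle. In the 71 windows of 62 further mitotic genes, TTTGAA was found in 49.3% and CCAAT in 62%, against 17.9% and 37.4% of all windows. In the 23 windows of 20 DNA replication genes, TTTGAA was found in 13%, CCAAT in 65.2%, TTGGCGC in 26.1% and TTCCCGC in 43.5%. A match is a description of letters, and no binding was measured here.

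**Figure D1:**
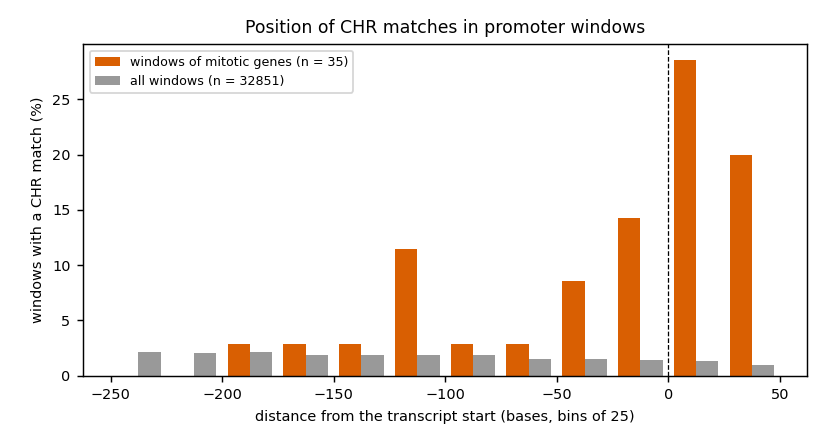
Share of promoter windows (percent) with a CHR match, by distance of the match from the transcript start in bins of 25 bases, for the 35 windows of mitotic genes (orange) and all 32851 windows (grey). The highest bar of the mitotic genes, 10 windows or 28.6%, stands in the first 25 bases after the start, where 1.31% of all windows had a match.

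Mitotic genes were slightly higher after TGF-β3 in every member's group mean, and no member passed the test. All 37 had a difference above 0, from 0.06 for Cdca3 to 0.38 log2 units for Hmmr, with a median of 0.17, or 1.04-fold to 1.30-fold. Differences are given as the TGF-β3 mean minus the Vehicle mean, in log2 signal. In limma with Benjamini-Hochberg adjustment over all genes, 0 of 37 members passed a threshold of 0.05 (lowest adjusted p = 0.684), where 0% of all genes were called. At an unadjusted p under 0.05, 5 members were higher (13.5%; 3.03% of all genes and 5.25% of genes of similar signal were higher at that p) and 0 were lower (2.13% of all genes). The upper end of the 95% interval stayed under 1 log2 unit in 37 of 37 members, with the highest at 0.73 for Cenpe.

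Direction alone was common among genes of this signal. The mean signals of the members lay between 6.96 and 10.6, and the 500 measured genes nearest in mean signal to each member formed a reference of 7525 genes without the members. Of these, 89.1% were higher after TGF-β3 (52.8% of all genes). The median difference was 0.10 in the reference and 0.01 over all genes. Set against the median of its own 500 neighbours, the median member was higher by 0.08, and 34 of 37 members lay above that median. Aurka, Foxm1 and Cdca3 lay below it. After quantile normalization 37 of 37 members were still above 0, with a median of 0.14, where 76.4% of the reference and 47.3% of all genes were. The median member then lay 0.08 above its neighbours, and 33 of 37 lay above them. The count at an unadjusted p under 0.05 was again 5, against 1.65% of all genes.

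**Figure D2:**
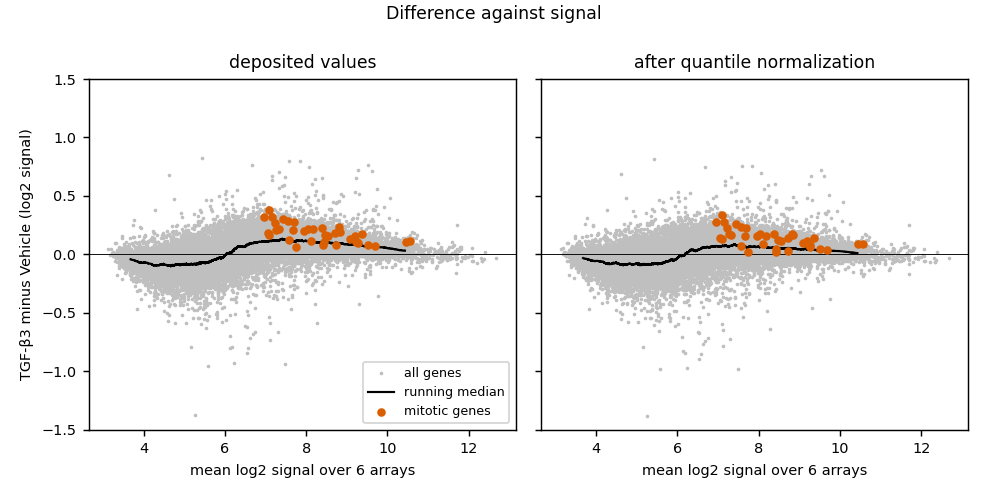
TGF-β3 minus Vehicle, in log2 signal, against the mean log2 signal over 6 arrays, for all genes (grey), the 37 mitotic genes (orange) and a running median over 501 genes (black), with deposited values on the left and quantile-normalized values on the right. The mitotic genes lie above 0 in both panels and most lie above the running median.

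The Vehicle 3 array stood apart from the other 5 arrays. Its SD over genes was 1.58, against 1.68 to 1.74, and its brighter genes lay low. The fifth of genes with the highest signal averaged 0.16 below their mean over the arrays there. The members' median difference of 0.17 was 0.18 without that array, with 36 of 37 members higher. It was 0.10 without TGF-β3 2 (35 of 37 higher), 0.10 without TGF-β3 3 (37 of 37), 0.29 without TGF-β3 1 (37 of 37) and 0.12 without both arrays numbered 3 (35 of 37 higher, an alternative chosen after seeing the data). Epithelial markers were present, with Cdh1 between 10.1 and 10.3 and Krt8 between 11.7 and 11.9 on all arrays, and Krt19 was low, between 4.87 and 4.98. The mean of 11 epithelial markers lay between 9.60 and 9.72 on the 6 arrays.

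The difference came in unequal size from the 3 pairs. Within pair 1, 27 of 37 members were higher (52.5% of all genes were), with a median difference of 0.07. Within pair 2, 36 of 37 were higher (55.3% of all genes) with a median of 0.17, and within pair 3, 36 of 37 (50.8% of all genes) with a median of 0.34. The neighbours in signal had medians of 0.03, 0.06 and 0.22 in the same pairs, so pair 3 was also the largest for other genes of this signal. After quantile normalization the members' medians were 0.05, 0.14 and 0.26, and those of the neighbours were 0.02, 0.03 and 0.13. In 25 members (67.6%) TGF-β3 was higher in all 3 pairs, against 24% of all genes and 44.6% of the reference. After quantile normalization this held for 21 members (56.8%), against 17.6% of all genes and 30.9% of the reference. The groups did not overlap in 6 members (16.2%; 6.84% of all genes and 12.6% of the reference, higher), which were Hmmr, Ndc80, Ncapg, Birc5, Kif2c and Ccnb2, and in 5 after quantile normalization (4.46% of all genes). When sample number entered the fit as a replicate block, 15 members (40.5%) had an unadjusted p under 0.05 and a higher level, against 6.9% of all genes and 12.1% of the reference, and 0 passed after adjustment (lowest adjusted p = 0.404; 0.00959% of all genes passed). With the block and quantile normalization together this count was 10, against 4.38% of all genes. Without the block but also without TGF-β3 1, this count was 25 (2.32% of all genes). TGF-β3 1 had the lowest mean level of its group, so leaving it out raises the members' differences. Vehicle 1, the array of the same number, stays in. The count of 25 therefore cannot tell treatment from sample number.

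**Figure D3:**
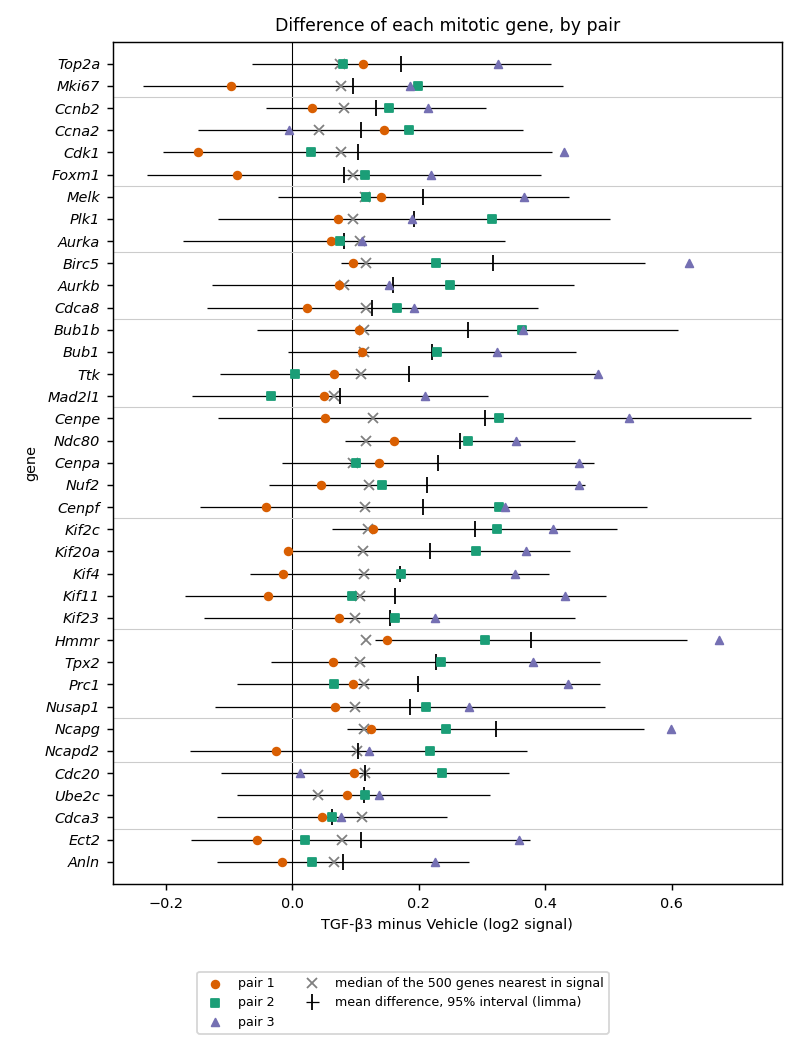
TGF-β3 minus Vehicle, in log2 signal, for each mitotic gene within pair 1 (circles), pair 2 (squares) and pair 3 (triangles), with the mean difference and its 95% interval from limma (bars) and the median of its 500 neighbours in signal (crosses), grouped by role. Pair 3 lies farthest right for most genes, and 32 of 37 intervals include 0.

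The marker genes of dividing cells had small differences. Mki67, which encodes the Ki-67 antigen found on chromosomes of cycling cells, had log2 signals of 9.06, 9.35 and 9.24 in Vehicle 1, 2 and 3 and of 8.97, 9.54 and 9.42 in TGF-β3 1, 2 and 3. It was lower after TGF-β3 in pair 1 and higher in pairs 2 and 3, and the groups overlapped (difference 0.10, SE 0.15). Top2a, the topoisomerase that untangles sister chromatids, had signals of 9.16, 9.39 and 9.27 in Vehicle and 9.28, 9.47 and 9.60 in TGF-β3. It was higher in 3 of 3 pairs with overlapping groups (0.17, SE 0.11), and 36 of its 40 probe sets were higher. Neither gene passed the test.

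Cyclins and their partners differed by 0.08 to 0.13. Cdk1, the kinase that drives entry into mitosis, had signals of 9.25, 9.43 and 8.95 in Vehicle and 9.10, 9.46 and 9.38 in TGF-β3. The groups overlapped, with Vehicle 3 lowest, and the difference of 0.10 (SE 0.14) was -0.06 without both arrays numbered 3 and -0.03 without Vehicle 3. Ccnb2, a B-type cyclin, varied least among these genes, with 9.06, 9.00 and 8.98 in Vehicle and 9.09, 9.15 and 9.20 in TGF-β3. Its groups did not overlap, and the difference was 0.13 (SE 0.08, unadjusted p = 0.118 in limma). Ccna2, the cyclin of S phase and G2, differed by 0.11 (SE 0.11). Foxm1, a transcription factor of mitotic genes, had signals of 8.55, 8.83 and 8.68 in Vehicle and 8.46, 8.95 and 8.90 in TGF-β3. It was lower in pair 1 and higher in the other pairs (0.08, SE 0.14), and was -0.01 without TGF-β3 2.

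Kinases of spindle and centrosome lay between 0.08 and 0.21. Plk1, which acts in centrosome maturation and mitotic exit, had signals of 8.56, 8.82 and 8.83 in Vehicle and 8.63, 9.14 and 9.02 in TGF-β3. It was higher in 3 of 3 pairs, while TGF-β3 1 lay below Vehicle 2 and Vehicle 3 (0.19, SE 0.14). Melk, a kinase expressed in proliferating cells, had 7.07, 7.29 and 7.14 in Vehicle and 7.21, 7.40 and 7.51 in TGF-β3, and was higher in 3 of 3 pairs (0.21, SE 0.10). Aurka, the Aurora kinase of centrosomes, differed by 0.08 (SE 0.11). In the chromosomal passenger complex, which corrects attachment of chromosomes to the spindle, Birc5, its survivin subunit, had 7.07, 7.09 and 6.83 in Vehicle and 7.17, 7.31 and 7.45 in TGF-β3. All 3 TGF-β3 arrays lay above all Vehicle arrays (0.32, SE 0.11, unadjusted p = 0.0154 in limma), with differences of 0.10, 0.23 and 0.63 in pairs 1, 2 and 3. The Birc5 difference was 0.07 with the brightest probe set and 0.16 with the median probe set in place of the mean. The kinase gene Aurkb and the borealin gene Cdca8 differed by 0.16 (SE 0.13) and 0.13 (SE 0.12).

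Spindle checkpoint genes hold back anaphase until every chromosome is attached. Bub1, a kinase of this checkpoint, had signals of 7.86, 7.97 and 7.97 in Vehicle and 7.96, 8.20 and 8.30 in TGF-β3. It was higher in 3 of 3 pairs, and only TGF-β3 1 reached into the Vehicle range (0.22, SE 0.10). Bub1b, which encodes BUBR1, differed by 0.28 (SE 0.15), the kinase gene Ttk by 0.18 (SE 0.13) and Mad2l1, which encodes MAD2, by 0.08 (SE 0.10). Bub1b had an unadjusted p of 0.092 in limma and of 0.00927 with the replicate block.

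Centromere and kinetochore genes had a median difference of 0.23, with 5 of 5 higher. Ndc80, a subunit of the complex that binds microtubules at the kinetochore, had 7.10, 7.13 and 7.03 in Vehicle and 7.26, 7.41 and 7.39 in TGF-β3. The groups did not overlap, and the difference was 0.26 (SE 0.08, unadjusted p = 0.00926 in limma), but -0.02 with the brightest probe set in place of the mean. Its partner in that complex, Nuf2, differed by 0.21 (SE 0.11). Cenpa, the histone variant of centromeres, had 8.61, 8.81 and 8.67 in Vehicle and 8.75, 8.91 and 9.12 in TGF-β3, with TGF-β3 3 highest and the groups overlapping (0.23, SE 0.11). Cenpe, a kinesin of the kinetochore, had the highest SD of the 37 members in TGF-β3, at 0.41 (0.20 in Vehicle, n = 3 each), and differed by 0.30 (SE 0.19). Cenpf, another kinetochore protein gene, differed by 0.21 (SE 0.16).

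The largest difference of a member was that of a spindle gene. Hmmr, which encodes a microtubule-associated protein of the spindle, had signals of 6.97, 7.02 and 6.73 in Vehicle and 7.12, 7.33 and 7.40 in TGF-β3. The groups did not overlap, 21 of 22 probe sets were higher, and the difference was 0.38 (95% interval 0.13 to 0.62, unadjusted p = 0.00714, adjusted p = 0.684 in limma). Its differences were 0.15, 0.31 and 0.68 in pairs 1, 2 and 3. Tpx2, which activates Aurora A on the spindle, had 8.20, 8.40 and 8.23 in Vehicle and 8.26, 8.63 and 8.61 in TGF-β3 (0.23, SE 0.12) and was higher in 3 of 3 pairs. Prc1, a microtubule bundling protein of the midzone, and Nusap1, another spindle protein, differed by 0.20 (SE 0.13) and 0.19 (SE 0.14).

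Of the kinesins, Kif2c, which takes microtubules apart at centromeres, had 7.37, 7.43 and 7.43 in Vehicle and 7.50, 7.75 and 7.84 in TGF-β3. The groups did not overlap, and the difference was 0.29 (SE 0.10, unadjusted p = 0.0177 in limma), but -0.01 with the brightest probe set. Kif20a, a kinesin of cytokinesis, had 8.10, 8.07 and 8.04 in Vehicle and 8.09, 8.36 and 8.41 in TGF-β3. It was equal in pair 1 to within 0.01 and higher in pairs 2 and 3 (0.22, SE 0.10). Kif4, a chromosome-bound kinesin, differed by 0.17 (SE 0.11), Kif11, which pushes spindle poles apart, by 0.16 (SE 0.15) and Kif23, a midzone kinesin, by 0.15 (SE 0.13).

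In condensin I, which compacts mitotic chromosomes, the subunits differed unequally in the mean of their probe sets. Ncapg had 6.82, 6.87 and 6.70 in Vehicle and 6.95, 7.11 and 7.29 in TGF-β3. The groups did not overlap, and the difference was 0.32 (SE 0.10, unadjusted p = 0.0127 in limma). It was 0.05 with the brightest probe set and 0.45 with the median probe set in place of the mean. Ncapd2 differed by 0.10 (SE 0.12), and the difference between the subunits was not tested. The activator of the anaphase promoting complex Cdc20, its ubiquitin-conjugating enzyme Ube2c and the mitotic entry gene Cdca3 differed by 0.12 (SE 0.10), 0.11 (SE 0.09) and 0.06 (SE 0.08). The cytokinesis genes Ect2 and Anln, the latter encoding an actin-binding protein, differed by 0.11 (SE 0.12) and 0.08 (SE 0.09). Over all members 549 of 653 probe sets (84.1%) were higher after TGF-β3, against 56.4% of all probe sets with a gene. That comparison was not matched in signal. Among genes of similar mean signal 89.1% were higher, but that is a share of gene means and not of single probe sets. By gene means 37 of 37 members were higher. Probe sets of the same gene are also not independent. The 84.1% therefore cannot tell an excess of the members from the direction common at their signal.

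Levels of the mitotic genes also varied with the sample number. Arrays numbered 1 had the lowest mean level in both groups. The mean over the 37 genes was 8.15, 8.33 and 8.23 in Vehicle 1, 2 and 3 and 8.20, 8.50 and 8.55 in TGF-β3 1, 2 and 3. In 27 members (73%) the array numbered 1 was the lowest of its group in both groups, against 17.9% of all genes and 8.03% of the reference. Numbers 2 and 3 averaged above number 1 in 37 of 37 members, with a median of 0.21 and a range of 0.00 for Ccnb2 to 0.51 for Cenpe. Among the 6 arrays, 25 members were highest on TGF-β3 3 and 11 on TGF-β3 2, while 21 were lowest on Vehicle 1, 9 on Vehicle 3 and 7 on TGF-β3 1. In 26 members the span of the 3 Vehicle arrays was larger than the treatment difference.

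**Figure D4:**
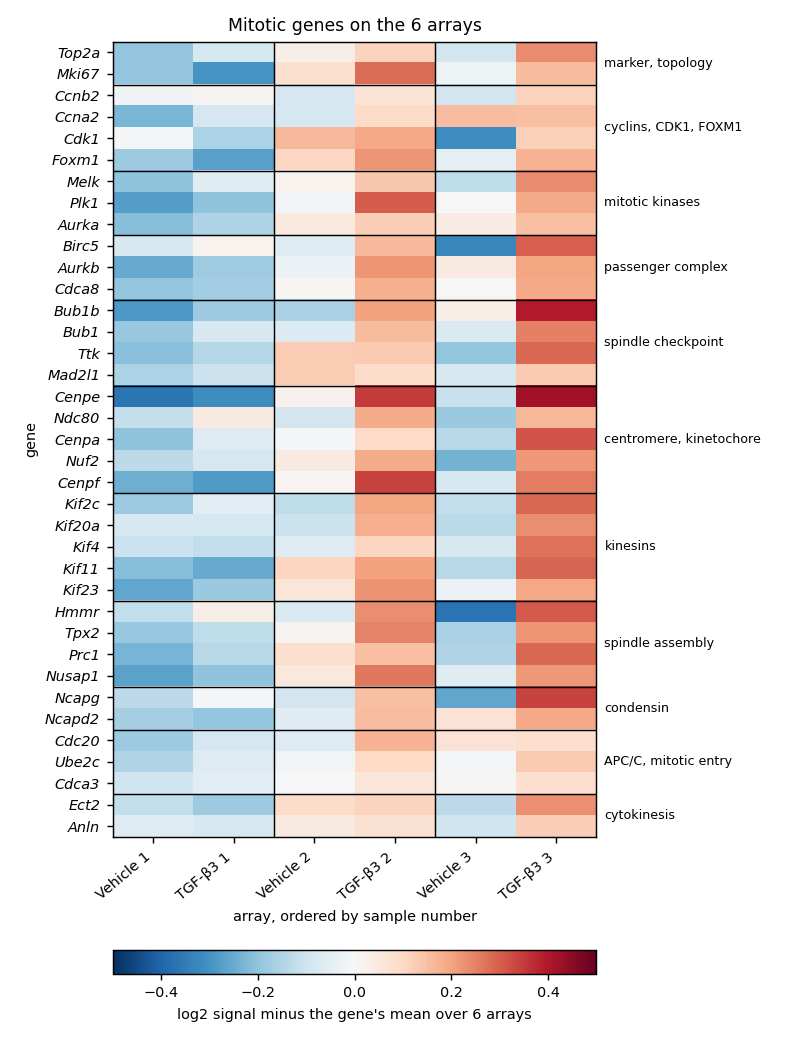
Log2 signal of the 37 mitotic genes minus each gene's mean over the 6 arrays (colour), with arrays ordered by sample number and genes by role. Both arrays numbered 1 are low in most genes, and TGF-β3 2 and TGF-β3 3 are high.

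In limma's F-test of the 3 sample numbers with treatment in the model, 0 of 37 members passed (lowest adjusted p = 0.116, for Cenpe), where 1.18% of all genes did. At an unadjusted p under 0.05 there were 14 members (37.8%), against 15.9% of all genes and 19.3% of the reference, and 17 after quantile normalization, against 17% of all genes. Cenpe (unadjusted p = 0.00303), Bub1b (0.00596), Nusap1 (0.00683), Kif23 (0.00764) and Plk1 (0.00767) had the smallest values in this F-test by limma. The count rested on 1 array in several ways. It was 0 without TGF-β3 1, 28 without Vehicle 3 (24% of all genes) and 26 without TGF-β3 3 (44% of all genes). Without TGF-β3 3, 14 members passed after adjustment, where 20.2% of all genes did. Without Vehicle 2 or TGF-β3 2, 1 member passed (Cenpe), and without Vehicle 3, 2 passed (Cenpe and Kif11). The 5 members with the smallest p for treatment (Hmmr, Ndc80, Ncapg, Birc5 and Kif2c) had unadjusted p-values of 0.579, 0.678, 0.62, 0.814 and 0.182 for the sample number in limma. They were picked by a test without the block on the same arrays, which favours genes with little spread within groups. These values therefore cannot tell whether their differences stand apart from the sample number.

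Levels of some fibroblast markers moved with the same numbers. The mean of 7 such markers was 6.66, 6.82 and 6.94 in Vehicle 1, 2 and 3 and 6.69, 6.92 and 6.96 in TGF-β3 1, 2 and 3. In 5 of 7, Dcn and Lum among them, the mean of the arrays numbered 1 was the lowest of the 3 numbers. This held for 7349 of all 20848 genes. Pdgfra went the other way, with 6.96, 6.63 and 6.69 in Vehicle and 7.00, 6.66 and 6.96 in TGF-β3. Col1a1 and Col1a2 passed the test of the sample number, while Dcn and Lum were low on all arrays, between 4.24 and 4.57. The 25th percentile of the probe set signals lay between 5.01 and 5.06 on the 6 arrays. Macrophage markers had means of 5.96 to 6.19, with 5 of 6 lowest in number 1 by the same measure (all but Cd14). Endothelial, adipocyte and lymphocyte markers had means of 4.93 to 5.26. Between the treatment groups, 4 of 7 fibroblast and 3 of 6 macrophage markers were higher, and no marker passed the adjusted test. Csf1r, a receptor gene of macrophages, had 6.37, 6.82 and 6.81 in Vehicle and 6.77, 7.18 and 7.14 in TGF-β3. It differed by 0.36 in 3 of 3 pairs (limma unadjusted p = 0.0387, and 0.000907 with the replicate block). Pdgfrb, a receptor gene of fibroblasts and pericytes, differed by 0.28 in 3 of 3 pairs (limma unadjusted p = 0.0866, and 0.00526 with the block). Of the other macrophage markers, Cd68 and Cd14 differed by 0.15 and 0.11. Ptprc, which encodes the leukocyte antigen CD45, differed by -0.22, Adgre1 by -0.15 and Itgam by -0.10. Ptprc, Adgre1 and Itgam had low signals, between 4.62 and 5.63 on the 6 arrays. These markers were named after their values were seen. Their part in the pattern of the mitotic genes, by number or by treatment, was not tested.

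Most mitotic genes outside the 38 were also higher after TGF-β3. Of 78 measured, 75 were higher and 3 lower (Kifc1, Pif1 and Sapcd2), with a median of 0.15 and of 0.11 after quantile normalization (70 of 78 higher). The share higher was 52.8% over all genes and 89.1% among genes of a signal similar to the 37. None passed the test (0 of 78; lowest adjusted p = 0.684 in limma). At an unadjusted p under 0.05, 10 were higher, against 3.03% of all genes and 5.25% of that reference. After quantile normalization 5 were, against 1.65% of all genes. The mean signals of the 78 lay between 5.44 and 9.61, so that reference was not matched to them. Cenph, a centromere protein gene, differed by 0.39 (SE 0.10), the kinase gene Pbk by 0.38 (SE 0.12), Spc25, a subunit of the NDC80 complex, by 0.32 (SE 0.11) and Parpbp by 0.31 (SE 0.11), each in 3 of 3 pairs. The pair medians of the 78 were 0.02, 0.15 and 0.29. The array numbered 1 was the lowest of its group in both groups in 42 of 78, against 17.9% of all genes.

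Genes of the earlier phase and of control were measured beside them. Of 24 DNA replication genes, 24 were higher with a median of 0.14 (0.09 after quantile normalization), and 0 passed. The helicase subunit gene Gins1 differed by 0.27 (SE 0.09) and the primase gene Prim1 by 0.31 (SE 0.13). Of 21 genes of MuvB, DREAM and the RB family, 20 were higher with a median of 0.12 (0.07 after quantile normalization, with 16 higher). Lin9, a MuvB subunit, differed by 0.37 (SE 0.15) and E2f1, an activating E2F factor, by 0.13 (SE 0.08). Of 14 subunits and activators of the anaphase promoting complex, 14 were higher with a median of 0.12 (0.07 after quantile normalization, with 12 higher), including Anapc4 at 0.22 (SE 0.08) and Cdc23 at 0.20 (SE 0.08). Of 7 CDK inhibitor genes, 4 were higher with a median of 0.03 (0.00 after quantile normalization, with 3 higher). The 3 lower genes, Cdkn1c, Cdkn2a and Cdkn2b, had signals of 5.12 to 6.14 on the 6 arrays, below the members' mean signals of 6.96 to 10.6. Cdkn2d differed by 0.09 (SE 0.09) and Cdkn1b, which encodes p27, by 0.06 (SE 0.10). No gene of these lists passed the test for treatment. These counts and medians stand beside 52.8% higher and 0.01 for all genes, and 89.1% higher and 0.10 for genes of a signal similar to the 37. The lists themselves were not matched to the 37 in signal.

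**Figure D5:**
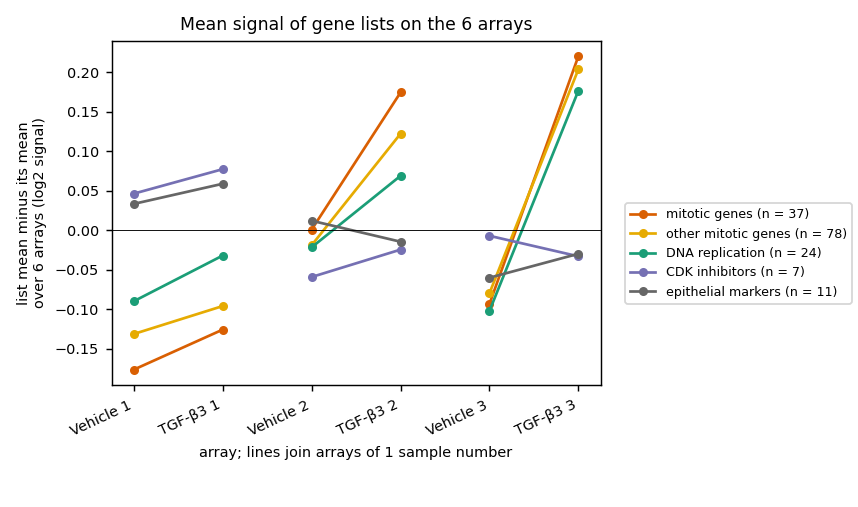
Mean log2 signal of 5 gene lists on each array, minus the list's mean over the 6 arrays, with lines joining the Vehicle and TGF-β3 arrays of 1 sample number. The 37 mitotic genes, the 78 other mitotic genes and the 24 DNA replication genes are lower in number 1 than on TGF-β3 2 and TGF-β3 3, while CDK inhibitors and epithelial markers are highest in number 1.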

How the data were processed

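RNA was measured on the Affymetrix mouse whole-transcript gene array, version 1.1, with 1 array per sample. The authors deposited 1 table of log2 signals for 241576 probe sets, made with RMA in Affymetrix Power Tools per the submitters' processing notes, which give no version. A log2 scale was inferred from values between 2.96 and 13.07. With 3 arrays a group, precision is limited, and detection calls were not used.

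The 213361 probe sets with 1 gene symbol in the platform's probe table (88.3%) were averaged per gene and array. Symbols were updated through RefSeq synonyms (GRCm38.p6, names only), which gave 20848 genes, with no filter on low signal. Members had 5 to 46 probe sets. Groups were compared by linear models without a block (limma 3.58.1, R 4.3.3), tested on simulated data, with Benjamini-Hochberg adjustment over all genes and a threshold of 0.05. Tables and figures used Python 3.11.15, pandas 2.3.3 and matplotlib 3.10.9.

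Same-numbered arrays were taken as pairs: the deviations from the group means correlated at 0.62, 0.41 and 0.22 across genes for numbers 1, 2 and 3, and at 0.17 for Vehicle 3 with TGF-β3 2. No 2 arrays were duplicates (SD of their difference 0.115 to 0.327). That SD was 0.115 in pair 1, 0.157 in pair 2 and 0.277 in pair 3. TGF-β3 3 differed least from TGF-β3 2 (0.147) and Vehicle 3 least from Vehicle 2 (0.24), so number 3 was the weakest pair by both measures.

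The members and lists were chosen with earlier results of these data known. Values on every array are given for the 10 members with the smallest p and for 5 fixed members (Mki67, Top2a, Cdk1, Foxm1, Plk1), and in the other lists at most 4 genes of smallest p are named. Ccnb2 was added for its separate groups, and other named genes after their values were seen. Alternatives were the replicate block, quantile normalization, median centring, a filter on low signal, the brightest or median probe set, trend and robust options, array weights, single probe sets and leaving out each array.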

Additional observations from a re-analysis of the deposited data

How the results depend on the processing

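No member passed the adjusted threshold for treatment under any of the alternatives run, single probe sets included. The members' median stayed above 0, from 0.0826 with the brightest probe set to 0.289 without TGF-β3 1, and 27 (brightest probe set) to 37 members were higher. Over all genes 2 passed with the replicate block (Ifit3b and Vmn1r-ps79), 1 with the replicate block and quantile normalization (Vmn1r-ps79) and 0 to 1 when an array was left out (Obox2, without Vehicle 1). The 5 members higher at an unadjusted p under 0.05 (3.03% of all genes) became 15 with the replicate block (6.9% of all genes). They became 10 with the block and quantile normalization (4.38% of all genes) and 9 with array weights. They were 0 with the brightest probe set or without both arrays numbered 3, with or without quantile normalization. Leaving out 1 array gave 2 (without TGF-β3 3) to 25 (without TGF-β3 1, 2.32% of all genes), and 8 without Vehicle 2. For the sample number, 0 to 14 members passed when an array was left out (14 without TGF-β3 3, 20.2% of all genes). An unadjusted p under 0.05 was then found in 0 to 28 members (28 without Vehicle 3, 24% of all genes). With the brightest probe set 6 members had it. Counts without a share of all genes beside them cannot be read as particular to the members.

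Of 255 values of 15 named members under the alternatives, 245 kept their direction. The others were Mki67 with the median probe set (-0.0012), Ndc80 and Kif2c with the brightest probe set (-0.0226 and -0.0062), Cdk1 with array weights (-0.0138) and without both arrays numbered 3 (-0.0599, and -0.0713 after quantile normalization), and Foxm1 without both and after quantile normalization (-0.0125). Leaving out 1 array gave -0.0202 (without TGF-β3 2) to 0.268 (without TGF-β3 1) for Mki67, -0.0257 (without Vehicle 3) to 0.211 (without Vehicle 2) for Cdk1 and -0.0070 (without TGF-β3 2) to 0.238 (without TGF-β3 1) for Foxm1. The cause of these changes was not tested. Leaving out both arrays numbered 3 was chosen after seeing the data and leaves 2 arrays a group. Signal over background is unknown here, so members of low signal may have compressed differences.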
